A study of Mus musculus with 11 samples.

Results

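The 10 genes of undifferentiated spermatogonia followed over the 4 genotypes were Zbtb16, Gfra1, Ret, Id4, Nanos2, Nanos3, Lin28a, Sall4, Etv5 and Foxo1. They were taken by gene symbol from a list set with earlier results of these data known, with no threshold on a measured value, and all 10 were found among the 33188 genes counted beside 1088 transposable element (TE) subfamilies. Poly-A RNA of testes at postnatal day 5 (P5) was sequenced as 11 libraries: 2 of wild type (WT), 3 of Dnmt3CKO/KO (Dnmt3C KO), 3 of the germline Nrf1 knockout (Nrf1 cKO, Nrf1KO/KO in the labels) and 3 of the double mutant (dKO). Dnmt3C KO mice lack DNMT3C, the DNA methyltransferase of young retrotransposon promoters in the male germ line. Nrf1 cKO mice carry 1 floxed and 1 deleted allele of Nrf1, a transcription factor that binds unmethylated CpG-containing sites, with Ddx4-Cre, a Cre recombinase driven by a germ cell promoter. The dKO carries the same Nrf1 alleles and Ddx4-Cre on a Dnmt3CKO/KO background. Whether the sequenced WT and Dnmt3C KO mice carried the Cre or a floxed allele was not examined here. Somatic cells of Nrf1 cKO and dKO testes keep the floxed Nrf1 allele beside the deleted allele, and so hold 1 unrecombined copy of Nrf1.

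Undifferentiated spermatogonia hold the stem cells of the male germ line, and their balance between self-renewal and differentiation is set in part by signals from the surrounding Sertoli cells. Glial cell line-derived neurotrophic factor, encoded by Gdnf, binds the co-receptor GFRA1 and activates the receptor tyrosine kinase RET. Inside the cell, transcription factors such as ZBTB16 (PLZF), SALL4, ETV5 and FOXO1, the inhibitor of DNA binding ID4, and the RNA-binding proteins NANOS2, NANOS3 and LIN28A maintain the undifferentiated state. At P5 spermatogonia are a minority of the cells in the testis, and these libraries hold the RNA of all of its cells.

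The labels name both germ cells and somatic cells, and the markers of both were present. Summed over 12 Sertoli cell markers, counts scaled to TMM-adjusted library size (CPM, with replicates of a genotype given in the order of their numbers throughout) were between 4321 and 8085 over the 11 libraries, whereas 19 germ cell markers summed to between 146 and 932. Library totals ran from 26063590 to 39365841 counts. The genotypes could not be checked on Nrf1 and Dnmt3c themselves: Nrf1 was between 44.9 and 60.8 CPM and Dnmt3c between 3.01 and 4.94 CPM over all libraries, with every pair of groups overlapping except that the Nrf1 values of Dnmt3C KO all lay below those of WT and dKO. These are counts of whole genes, and the deleted parts were not examined. Of the germ cell markers, 0 were called in any comparison (edgeR). WT had sums of 581 and 555 CPM, Dnmt3C KO of 520 to 932, Nrf1 cKO of 146 to 357 and dKO of 219 to 581. Ddx4, an RNA helicase gene of germ cells, had 65.7 and 60.8 CPM in WT and 39.1, 17.5 and 19.8 CPM in Nrf1 cKO. Dazl, a germ cell RNA-binding protein gene, had 91.2 and 97.4 CPM in WT and 44.2, 21.4 and 24.8 CPM in Nrf1 cKO. In whole testes, fewer germ cells and less RNA per germ cell cannot be told apart.

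The sequence before the start site is shown for the 3 genes with the largest differences between Nrf1-deleted and Nrf1-intact testes, and for Id4, the member whose window held most CpG. RefSeq windows on GRCm38.p6 were matched for 7 of the 10 members, and 250 bases before the start were read from each. The printed run ends at the first exon that GENCODE M21 places in the window. Sequences read 5′ to 3′ on the strand of the gene, with CpG dinucleotides in capitals.
Nanos3 (chr8:84176553-84176802, minus strand): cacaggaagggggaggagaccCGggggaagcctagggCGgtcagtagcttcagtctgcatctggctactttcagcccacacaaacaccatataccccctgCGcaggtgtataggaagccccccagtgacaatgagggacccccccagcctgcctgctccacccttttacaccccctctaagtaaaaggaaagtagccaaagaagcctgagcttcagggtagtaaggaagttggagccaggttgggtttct
Nanos2 (chr7:18987274-18987399, plus strand): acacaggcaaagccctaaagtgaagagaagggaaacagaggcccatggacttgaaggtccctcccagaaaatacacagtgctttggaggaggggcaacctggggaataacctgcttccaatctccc
Lin28a (chr4:134018842-134019066, minus strand): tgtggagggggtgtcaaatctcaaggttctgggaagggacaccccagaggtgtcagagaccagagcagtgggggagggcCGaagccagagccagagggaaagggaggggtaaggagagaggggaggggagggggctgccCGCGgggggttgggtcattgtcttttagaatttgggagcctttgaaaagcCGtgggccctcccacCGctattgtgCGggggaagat
Id4 (chr13:48260866-48261115, plus strand): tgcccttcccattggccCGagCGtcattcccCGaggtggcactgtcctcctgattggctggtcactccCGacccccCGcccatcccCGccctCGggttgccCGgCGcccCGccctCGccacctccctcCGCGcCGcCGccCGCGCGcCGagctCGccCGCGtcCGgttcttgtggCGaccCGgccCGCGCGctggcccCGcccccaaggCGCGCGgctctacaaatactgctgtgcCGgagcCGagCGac

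The members' start sites differed in CpG content. In the full 250 bases, Nanos2 held 0 CpG and Nanos3 held 3, against a median of 6 over all 32851 windows, and as few or fewer were found in 7.87% and 37.8% of windows. Lin28a had 7, Gfra1 10 and Foxo1 20, and the 2 start sites of Etv5 had 18 and 27. Id4 held 35, a number reached by 2.97% of windows. The letters TGCGCA, a part of the known NRF1 motif that reads the same on both strands, were found in 1 of the 8 member windows, that of Nanos3 at positions -152 to -147 from the start, and in 6.43% of all windows. The windows of Nanos3 and Gfra1 and 1 of the 2 of Etv5 lie wholly inside the gene as GENCODE M21 places it, and are not the sequence before the GENCODE start. Binding was not measured in these data.

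The receptor genes Gfra1 and Ret were lowest in most Nrf1-deleted libraries, but 1 library of each Nrf1-deleted genotype was close to or above the WT levels. Gfra1 (ENSMUSG00000025089.15, chromosome 19 of GRCm38 from 58235604 to 58455909, minus strand) had 30.4 and 23.0 CPM in WT and 15.1, 24.0 and 19.7 CPM in Dnmt3C KO. It had 22.8, 8.57 and 9.98 CPM in Nrf1 cKO and 12.8, 31.7 and 13.4 CPM in dKO. All Nrf1 cKO libraries were below both WT libraries, replicate 1 only just, whereas dKO overlapped every other genotype. Ret (ENSMUSG00000030110.13, chromosome 6 from 118151745 to 118197718, minus strand) had 35.1 and 27.2 CPM in WT and 20.4, 22.2 and 21.3 CPM in Dnmt3C KO. In Nrf1 cKO it had 36.1, 9.76 and 5.84 CPM, and in dKO 9.64, 28.8 and 11.2 CPM. Nrf1 cKO replicate 1 thus had the highest Ret level of all 11 libraries and its replicate 3 the lowest, a 6.18-fold range within the genotype, where Dnmt3C KO spanned 1.09-fold. In Dnmt3C KO, all 3 libraries were below both of WT for Ret.

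Against WT, the log2 fold change in Nrf1 cKO was -0.96 for Gfra1 (SE 0.37, adjusted p = 0.847, edgeR quasi-likelihood test) and -0.86 for Ret (SE 0.58, adjusted p = 0.948, edgeR). Neither passed the threshold of an adjusted p under 0.01. Both values rest on the high library: without Nrf1 cKO replicate 1 they were -1.54 and -2.00, with adjusted p of 0.028 and 0.018 (edgeR). For Ret it was -0.57 without Nrf1 cKO replicate 2 and -0.45 without replicate 3. Between dKO and Dnmt3C KO, Gfra1 differed by -0.03 (SE 0.33) and Ret by -0.37 (SE 0.35), and without dKO replicate 2 by -0.60 and -1.05. Without dKO replicate 1 they differed by 0.17 and -0.12, and without dKO replicate 3 by 0.18 and -0.15. Between Dnmt3C KO and WT, Ret had a log2 fold change of -0.55 (SE 0.16, unadjusted p = 0.00548, adjusted p = 0.788 in edgeR) and Gfra1 one of -0.44 (SE 0.21). Without WT replicate 1 these were -0.34 and -0.22, and without Dnmt3C KO replicate 1 Gfra1 had -0.27. Gdnf, the ligand, is made by somatic cells. WT had 33.1 and 28.4 CPM, Dnmt3C KO 26.9 to 38.3, Nrf1 cKO 28.5 to 48.3 and dKO 32.5 to 63.1 CPM. Its log2 difference with Nrf1 deletion was 0.32 (SE 0.19, adjusted p = 0.692 in edgeR), and its highest value was in dKO replicate 2.

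**Figure D1:**
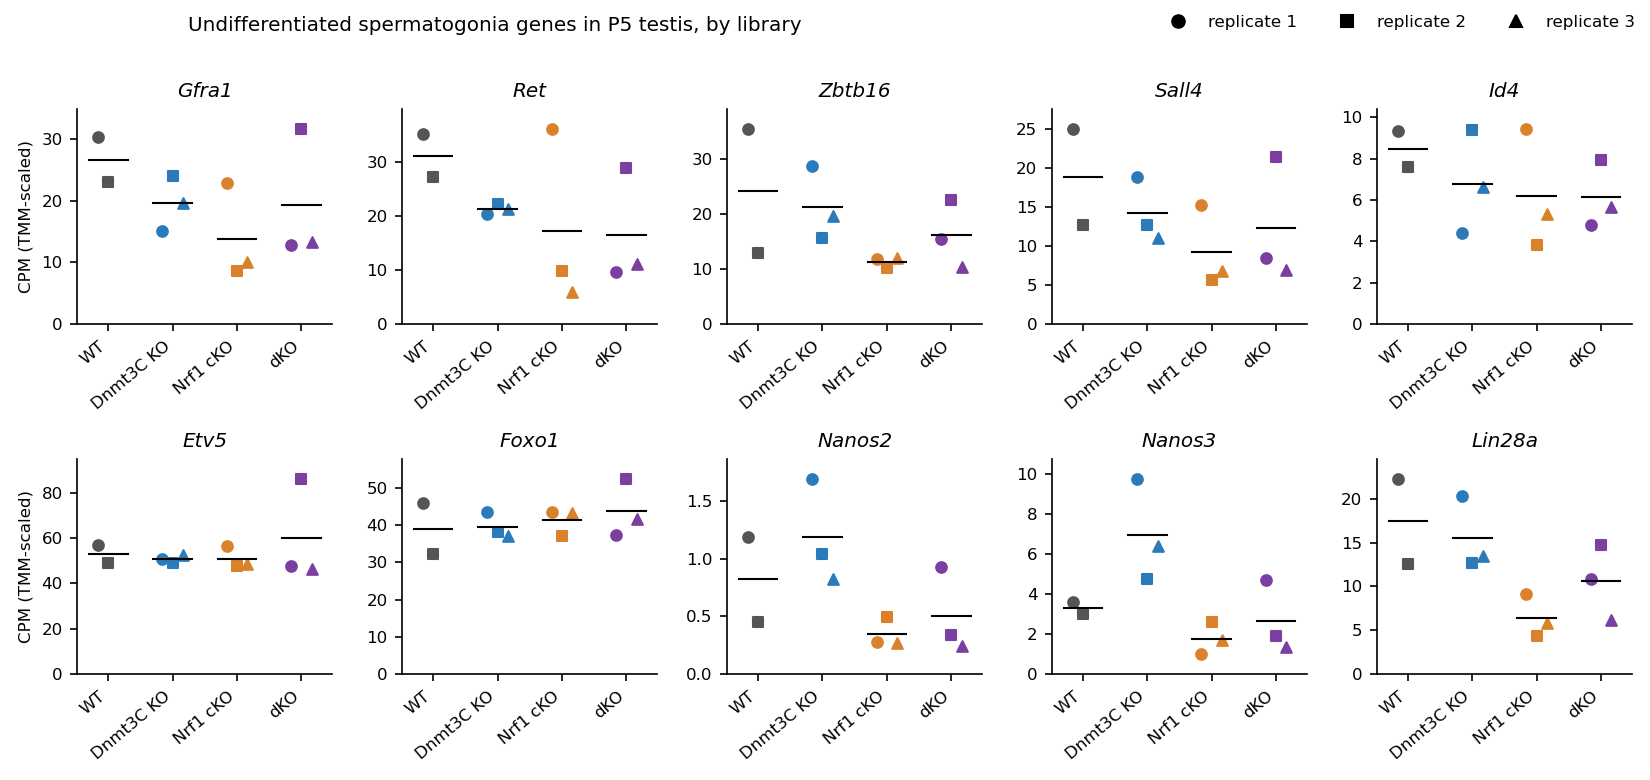
Level of each member in every library (vertical axes, CPM after TMM scaling, from 0; horizontal axes, genotype; marker shape, replicate; bars, genotype means of 2 WT and 3 mutant libraries). Nrf1 cKO replicate 1 and dKO replicate 2 stand high for Gfra1, Ret, Id4 and Sall4 but not for Nanos3, whose values in Nrf1 cKO (1.00 to 2.58 CPM) lie below both WT libraries.

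Among the transcription factors, Zbtb16 and Sall4 were lower on average in Nrf1-deleted testes, and Id4, Etv5 and Foxo1 had smaller mean differences. Zbtb16 (ENSMUSG00000066687.5, chromosome 9 from 48654297 to 48836222, minus strand) encodes PLZF, a zinc finger repressor needed for self-renewal. WT had 35.4 and 12.8 CPM and Dnmt3C KO 28.7, 15.6 and 19.7 CPM. Nrf1 cKO had 11.8, 10.1 and 11.9 CPM, and dKO 15.4, 22.6 and 10.3 CPM. The Nrf1 cKO libraries were tightly grouped below both WT libraries, although WT replicate 2 exceeded the highest of them by less than 1 CPM. The log2 fold change between Nrf1 cKO and WT was -1.11 (SE 0.36, unadjusted p = 0.011, adjusted p = 0.833 in edgeR). Without WT replicate 1 it was -0.16, so that its size rested on that library.

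Sall4 (ENSMUSG00000027547.17, chromosome 2 from 168748332 to 168767943, minus strand), a zinc finger factor of pluripotent and germ cells, had 25.1 and 12.7 CPM in WT and 18.9, 12.7 and 11.05 CPM in Dnmt3C KO. In Nrf1 cKO it had 15.3, 5.68 and 6.81 CPM, and in dKO 8.46, 21.5 and 6.995 CPM. As for the receptors, Nrf1 cKO replicate 1 and dKO replicate 2 were the high libraries, and the groups overlapped. The log2 fold change was -1.04 between Nrf1 cKO and WT (SE 0.43, adjusted p = 0.852 in edgeR) and -0.21 between dKO and Dnmt3C KO (SE 0.39). The first was -0.43 without WT replicate 1 and -1.61 without Nrf1 cKO replicate 1, and the second was -0.89 without dKO replicate 2. Id4 (ENSMUSG00000021379.2, chromosome 13 from 48261228 to 48266026, plus strand), whose protein blocks DNA binding by basic helix-loop-helix factors and marks stem cells, had 9.34 and 7.57 CPM in WT and between 3.81 and 9.44 CPM in the mutants. Its log2 fold change was -0.46 between Nrf1 cKO and WT (SE 0.37) and -0.15 between dKO and Dnmt3C KO (SE 0.30). The first was -0.90 without Nrf1 cKO replicate 1, -0.20 without Nrf1 cKO replicate 2 and -0.27 without WT replicate 1, and the second ran from -0.40 without dKO replicate 2 to 0.15 without Dnmt3C KO replicate 2.

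Etv5 and Foxo1 were the most even members. Etv5 (ENSMUSG00000013089.15, chromosome 16 from 22381309 to 22439719, minus strand) encodes an ETS factor that responds to GDNF and FGF and is also made by Sertoli cells. In 10 of the 11 libraries it was between 46.6 and 57.2 CPM, and in dKO replicate 2 it was 86.4 CPM. Foxo1 (ENSMUSG00000044167.6, chromosome 3 from 52268336 to 52353221, plus strand), a forkhead factor kept out of the nucleus by AKT signalling, was between 32.2 and 52.6 CPM, with dKO replicate 2 again highest. With Nrf1 deletion in both backgrounds, the log2 differences were 0.11 for Etv5 (SE 0.15) and 0.12 for Foxo1 (SE 0.12).

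In the fit of Nrf1 deletion over both Dnmt3C backgrounds, the RNA-binding members had the largest values, but between Nrf1 cKO and WT Nanos3 was smaller than Zbtb16, Sall4 and Gfra1. Nanos3 (ENSMUSG00000056155.6, chromosome 8 from 84173731 to 84185217, minus strand), a zinc finger protein of germ cells, had 3.59 and 2.97 CPM in WT and 9.76, 4.73 and 6.38 CPM in Dnmt3C KO. Nrf1 cKO had 1.00, 2.58 and 1.66 CPM, and dKO 4.67, 1.88 and 1.31 CPM. All Dnmt3C KO libraries were above both WT libraries and above all dKO libraries, with Dnmt3C KO replicate 2 only just above dKO replicate 1. All Nrf1 cKO libraries were below WT. The log2 fold change was 1.08 between Dnmt3C KO and WT (SE 0.33, unadjusted p = 0.0071, adjusted p = 0.788 in edgeR), -0.91 between Nrf1 cKO and WT (SE 0.43, adjusted p = 0.888) and -1.40 between dKO and Dnmt3C KO (SE 0.45, unadjusted p = 0.012, adjusted p = 0.675). The last value was -2.14 without dKO replicate 1.

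Nanos2 (ENSMUSG00000051965.8, chromosome 7 from 18987400 to 18988962, plus strand), which in the embryonic testis directs the male fate and later maintains stem cells, was the lowest member. It had 44 and 15 counts in WT, which is 1.19 and 0.45 CPM, and 1.69, 1.04 and 0.83 CPM in Dnmt3C KO. In Nrf1 cKO it had 0.27, 0.49 and 0.27 CPM, from 9, 18 and 7 counts. In dKO it had 0.93, 0.34 and 0.24 CPM, from 33, 11 and 8 counts. The groups overlapped in every comparison. The log2 fold change was -1.25 between Nrf1 cKO and WT (SE 0.62) and -1.22 between dKO and Dnmt3C KO (SE 0.54), with adjusted p of 0.911 and 0.675 (edgeR). The first value was -0.35 without WT replicate 1, and the second was -2.03 without dKO replicate 1.

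Lin28a (ENSMUSG00000050966.9, chromosome 4 from 134003330 to 134018841, minus strand), whose protein blocks maturation of let-7 microRNA, had 22.3 and 12.6 CPM in WT and 20.3, 12.7 and 13.4 CPM in Dnmt3C KO. It had 9.13, 4.35 and 5.77 CPM in Nrf1 cKO and 10.9, 14.7 and 6.20 CPM in dKO. Nrf1 cKO was below WT in every library, and dKO overlapped both Dnmt3C KO and Nrf1 cKO. The log2 fold change between Nrf1 cKO and WT was -1.46, a level 0.364 times that of WT (SE 0.35, unadjusted p = 0.00209, adjusted p = 0.734 in edgeR), the largest of the 10 members. Between dKO and Dnmt3C KO it was -0.55 (SE 0.30, adjusted p = 0.677 in edgeR). The first value was -0.95 without WT replicate 1, and the second was -0.87 without dKO replicate 2 and -0.28 without dKO replicate 3.

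Over the members, 0 of 10 were called between Nrf1 cKO and WT, where edgeR called 0% of 21296 features. At an unadjusted p under 0.05, 4 members (Lin28a, Zbtb16, Gfra1 and Sall4) were lower, beside 4.22% of all features. For 4 members (Zbtb16, Gfra1, Nanos3 and Lin28a) all Nrf1 cKO libraries lay below WT, as did 11.6% of all features. The median log2 fold change of the 10 was -0.94, against 0.00 over all features. Both values rest on WT replicate 1, 1 of only 2 WT libraries: without it, 0 members had an unadjusted p under 0.05 and the median was -0.39. Without Nrf1 cKO replicate 1 the median was -1.12, against -0.008 over all features. For fits with a library left out, shares of all features at an unadjusted p under 0.05 are not given. With DESeq2, 26 features (0.079%) and 0 members were called. The call depended on the filter on low counts: without it, edgeR called 138 features (0.419%), Lin28a (adjusted p = 2.65e-04) and Zbtb16 (adjusted p = 0.00372) among them. In this comparison, 18 of 18 germ cell markers tested were below 0, with a median of -1.31, and 15 had an unadjusted p under 0.05. Medians were 0.49 for Sertoli, 0.29 for Leydig, 0.02 for peritubular, 0.50 for endothelial, 0.25 for macrophage and -0.82 for red blood cell markers. Their part in the members' values was not tested.

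Between dKO and Dnmt3C KO, edgeR called 0 of 10 members and 0% of 20783 features, and DESeq2 called 0 members and 19 features (0.0567%). Nanos3 and Nanos2 had an unadjusted p under 0.05, both lower, beside 4.08% of features. Nanos3 was the 1 member whose groups did not overlap, where 6.89% of features were lower in the same way. The median of the members was -0.29, against 0.02 over all features, and that of the germ cell markers was -0.79. Single libraries decide the members' summary here: without dKO replicate 2 the median was -0.80, whereas it was -0.07 without dKO replicate 1 and -0.13 without dKO replicate 3. Over all features these medians were -0.005, -0.004 and 0.007. The count of members at an unadjusted p under 0.05 also moved, to 0 without Dnmt3C KO replicate 1. Shares of all features are not given for fits with a library left out. Read beside the Nrf1 cKO and WT pair, which shares no library with this one, 8 members had negative values in both, all but Etv5 and Foxo1. Zbtb16 had -1.11 and -0.41, Sall4 -1.04 and -0.21, and Gfra1 -0.96 and -0.03. Of these, the second Zbtb16 value was -0.74 without dKO replicate 2, -0.17 without dKO replicate 3 and -0.14 without Dnmt3C KO replicate 1.

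**Figure D2:**
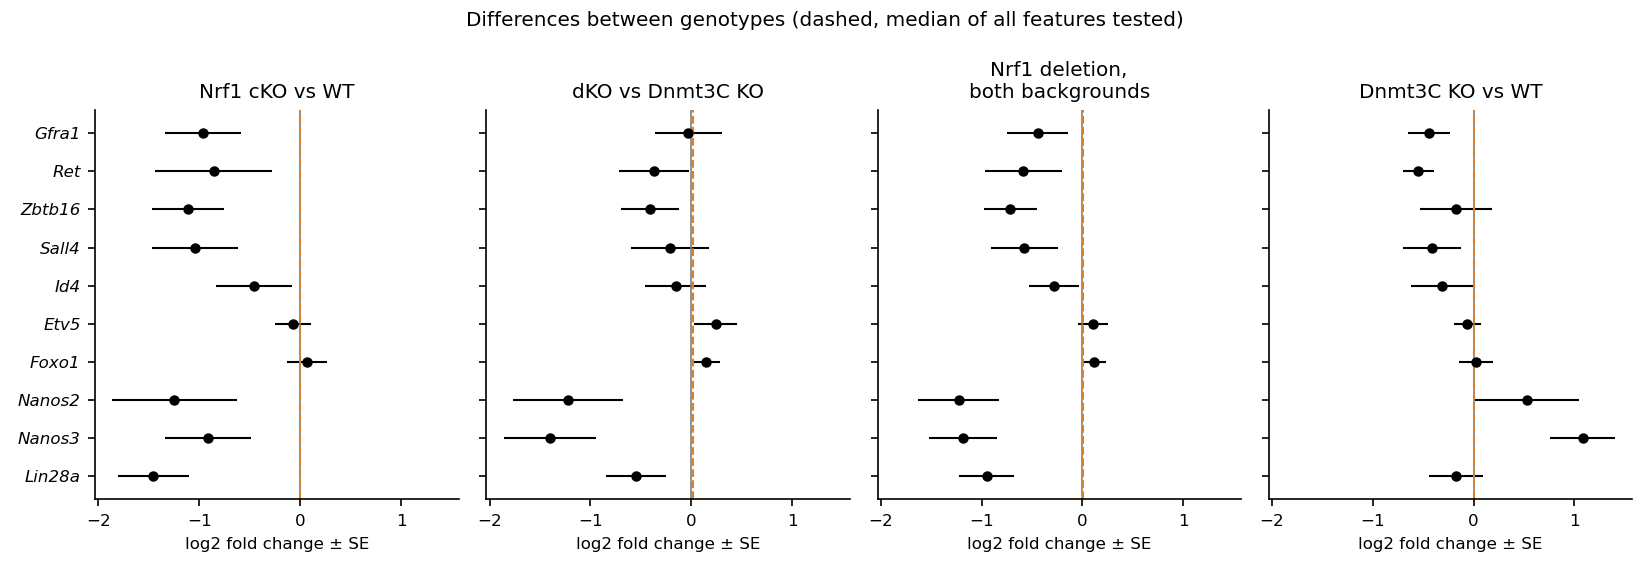
Log2 fold change of each member (points) with its standard error (bars) from edgeR in 4 comparisons; the dashed line is the median of all features tested. The 8 members other than Etv5 and Foxo1 lie below 0 in each of the 3 panels of Nrf1 loss, Gfra1 by only 0.03 between dKO and Dnmt3C KO, and Nanos3 lies above 0 between Dnmt3C KO and WT.

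Taking all 11 libraries together, Nrf1 deletion was tested with the Dnmt3C genotype as a covariate, 6 libraries with the deletion against 5 without. The additive fit called 0 of 10 members and 1 of 22594 features (0.00443%), Tuba3a, and DESeq2 called 0 members and 39 features (0.114%). The log2 differences were -1.23 for Nanos2 (SE 0.40), -1.19 for Nanos3 (SE 0.34), -0.95 for Lin28a (SE 0.27) and -0.72 for Zbtb16 (SE 0.26). These 4 had an unadjusted p under 0.05, beside 4.32% of all features lower at that level, and their adjusted p were 0.483, 0.395, 0.402 and 0.537 (edgeR). Ret, Sall4, Gfra1 and Id4 had -0.59, -0.58, -0.44 and -0.28. For each of these 8 the value stayed below 0 when any single library was left out, although its size moved by over 1.5 times in 5 of them. Zbtb16 ran from -0.92 without dKO replicate 2 to -0.33 without WT replicate 1, and Sall4 and Gfra1 from -0.95 and -0.77 to -0.29 and -0.27 without the same libraries. Ret ran from -0.999 without Nrf1 cKO replicate 1 to -0.40 without Nrf1 cKO replicate 3, and Id4 from -0.44 without Nrf1 cKO replicate 1 to -0.15 without Dnmt3C KO replicate 2. Every member overlapped between the deleted and intact libraries, whereas 0.451% of features were lower in all 6 than in all 5. The median of the members was -0.58, from -0.31 without WT replicate 1 to -0.93 without dKO replicate 2, where that of all features was -0.009 and -0.002. The median of 18 germ cell markers was -1.04 with all libraries.

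Most members had smaller log2 fold changes between Dnmt3C KO and WT than between Nrf1 cKO and WT. Those of Ret, Gfra1, Sall4 and Id4 were larger in size than between dKO and Dnmt3C KO, and differences between comparisons were not tested here. Between Dnmt3C KO and WT, edgeR called 0 of 10 members and 0% of 21664 features, and DESeq2 called 0 members and 25 features (0.0751%). At an unadjusted p under 0.05, Nanos3 was higher (beside 2.56% of features) and Ret lower (beside 2.86%), and these were also the members without overlap, as were 9.78% of features above and 11.5% below. The remaining 8 members overlapped, with log2 fold changes from -0.44 for Gfra1 to 0.53 for Nanos2 and a member median of -0.18. These values rest on the WT libraries. Without WT replicate 1, Nanos2 had 1.40 and the median was 0.24. Without WT replicate 2, Nanos2 had 0.015 and the median was -0.48. The median was -0.046 without Dnmt3C KO replicate 2. The members at an unadjusted p under 0.05 also changed with the library left out, and shares of all features are not given for those fits. Red blood cell markers had a median of -1.24 here, with 5 of 5 lower at an unadjusted p under 0.05 and 0 called. They summed to 659 CPM in WT replicate 1, 2123 CPM in WT replicate 2 and 545 to 789 CPM in Dnmt3C KO. Their part in the members' values was not tested. These values share the WT libraries with the comparison of Nrf1 cKO and WT. Over both Nrf1 backgrounds, Nanos3 differed by 0.81 with Dnmt3C loss (SE 0.34, unadjusted p = 0.032, adjusted p = 1.00 in edgeR; 0.50 without dKO replicate 1) and Ret by -0.28 (SE 0.38). An unadjusted p under 0.05 and a higher level were found for Nanos3 and for 1.9% of features. In that fit edgeR called 0 members and MMERVK10C-int, an endogenous retrovirus, as its only feature (0.00443%), and DESeq2 called 0 members and 0.073% of features. Of 18 germ cell markers tested between Dnmt3C KO and WT, 16 were above 0, and the markers' sum was highest in Dnmt3C KO replicate 1, which also had the highest Nanos3 and Nanos2. Without any single library, the Nanos3 value between Dnmt3C KO and WT was from 0.77 to 1.29.

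In dKO against Nrf1 cKO, edgeR called 0 of 10 members and 0% of 20381 features, DESeq2 called 8 features (0.0241%) and 0 members. At an unadjusted p under 0.05, 0 members were reached in either direction, beside 1.94% of features higher and 0.868% lower. That 0 did not hold in every fit with a library left out, for which shares of all features are not given. The members' median was 0.45, against -0.009 over all features. It was 0.48 without Nrf1 cKO replicate 1, 0.69 without dKO replicate 3 and -0.06 without dKO replicate 2. Log2 fold changes ran from -0.06 for Ret (SE 0.63) to 0.73 for Lin28a (SE 0.36), which was 0.42 without dKO replicate 2. The germ cell markers had a median of 0.79 here, with 17 of 18 above 0 and 5 at an unadjusted p under 0.05, and one of 0.51 in the interaction, with 16 of 18 above 0. In dKO against Nrf1 cKO, medians were -0.18 for Sertoli, -0.33 for Leydig, -0.17 for peritubular, -0.68 for endothelial, -0.28 for macrophage and -0.69 for red blood cell markers. Their part was not tested. Every member overlapped, where 4.14% of features were higher and 3.29% lower without overlap. The interaction, which asks whether Nrf1 deletion acts differently in the 2 Dnmt3C backgrounds, called 0 members and 0% of 22594 features with edgeR, and DESeq2 called 0 features. Its values ran from -0.50 for Nanos3 (SE 0.69) to 0.93 for Gfra1 (SE 0.58). Gfra1 had 0.34 without dKO replicate 2 and 1.502 without Nrf1 cKO replicate 1, and Nanos3 had -1.23 without dKO replicate 1 and -0.095 without Nrf1 cKO replicate 2. At an unadjusted p under 0.05 there were 0 members, 3.68% of features above 0 and 1.86% below. The count of 0 members did not hold in every fit with a library left out, for which shares of all features are not given. The members' median was 0.40 with all libraries, 0.73 without Nrf1 cKO replicate 1 and 0.08 without dKO replicate 2. Over all features these medians were -0.009, 0.002 and -0.05. The Gfra1 values of the 2 Nrf1 comparisons were therefore not shown to differ.

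The members did not vary as one block between libraries. In WT, replicate 1 was the higher library for 10 of 10 members. In Nrf1 cKO, replicate 1 was highest for 7 of 10 members, but lowest for Nanos3. In dKO, replicate 2 was highest for 8 of 10, the exceptions being Nanos2 and Nanos3, which were highest in replicate 1. In Dnmt3C KO, replicate 1 was highest for 6, among them Nanos2, Nanos3 and Lin28a, and lowest for Gfra1, Ret and Id4. The ratio of Gfra1 to Nanos3 CPM was 22.8 in Nrf1 cKO replicate 1 and 16.8 in dKO replicate 2, and between 1.54 and 10.2 in the other 9 libraries. For Ret to Nanos3 it was 36.1 and 15.3 in the same libraries, and between 2.07 and 9.78 in the others. These ratios were computed after the values were seen.

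**Figure D3:**
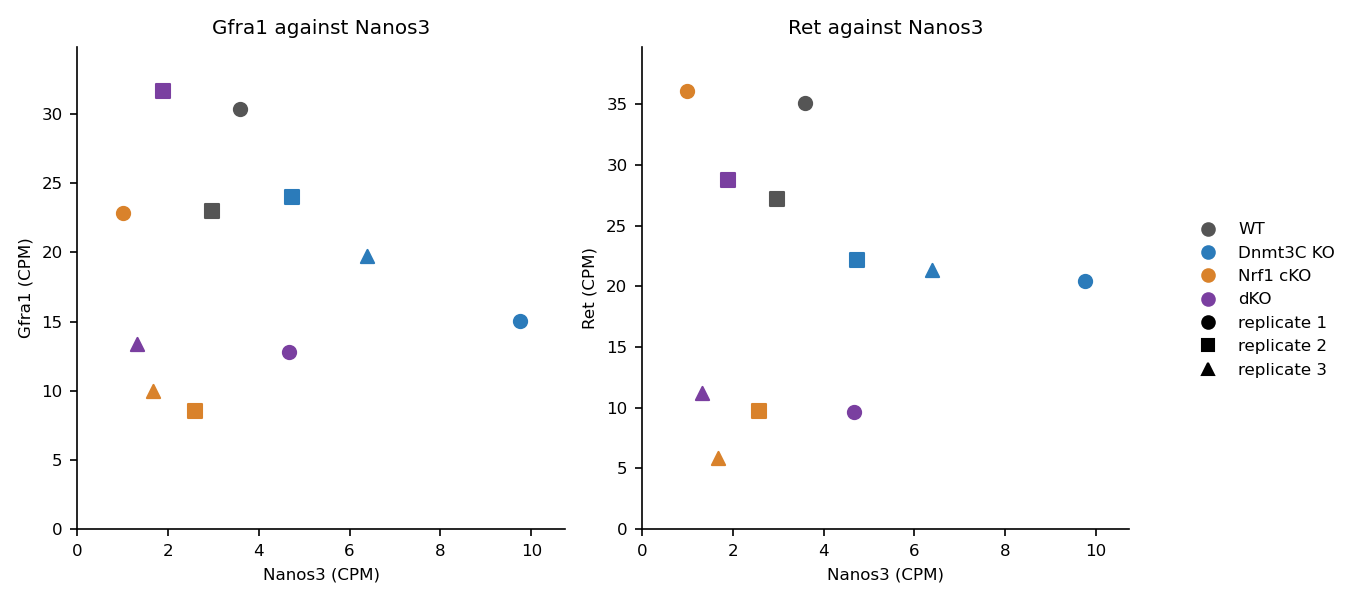
Gfra1 (left) and Ret (right) against Nanos3 in CPM, 1 point per library, coloured by genotype and shaped by replicate. Nrf1 cKO replicate 1 and dKO replicate 2 have high receptor levels with Nanos3 at 1.00 and 1.88 CPM, whereas Dnmt3C KO replicate 1 has the highest Nanos3, 9.76 CPM.

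The members were next set against the germ cell markers of the same library. The mean of the 19 germ cell markers was 4.13 and 3.98 on the log2 CPM scale for WT and 4.98, 4.00 and 4.14 for Dnmt3C KO. For Nrf1 cKO it was 3.65, 2.00 and 2.22, and for dKO 4.10, 3.62 and 2.74. The Lin28a level minus that mean was 0.01 ± 0.48 (SD, n = 2) for WT libraries and 0.00 ± 0.40 (SD, n = 3) for those of Nrf1 cKO. It was -0.45 ± 0.16 (SD, n = 3) for Dnmt3C KO and -0.17 ± 0.46 (SD, n = 3) for dKO. Gfra1 was 0.67 ± 0.18 (SD, n = 2) above the markers in WT and 1.02 ± 0.14 (SD, n = 3) in Nrf1 cKO. Foxo1 was 1.21 ± 0.26 (SD, n = 2) above them in WT and 2.74 ± 0.82 (SD, n = 3) in Nrf1 cKO, and Etv5 was 1.67 ± 0.05 and 3.04 ± 0.76 above them. The other members are given as means ± SD of the same difference, for WT (n = 2) and then Nrf1 cKO (n = 3). They were Ret (0.89 ± 0.15 and 1.05 ± 0.64), Sall4 (0.10 ± 0.59 and 0.45 ± 0.14), Zbtb16 (0.36 ± 0.93 and 0.88 ± 0.83) and Id4 (-0.98 ± 0.11 and -0.09 ± 0.30). Nanos3 had -2.34 ± 0.08 and -1.89 ± 1.54, and Nanos2 had -4.45 ± 0.84 and -4.09 ± 1.22. No cut between the members was tested.

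With library sizes set so that the germ cell markers were equal in all libraries, the median of all features moved to 1.22 for Nrf1 deletion and that of the members to 0.51, since this scaling shifts all features by about the same amount. On that scale Foxo1 had 1.35 and Etv5 1.29 (adjusted p of 0.015 for each in edgeR), Nanos3 had 0.00 and Nanos2 -0.09, and 0 members were called. The sign of 7 members turned with that shift.

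**Figure D4:**
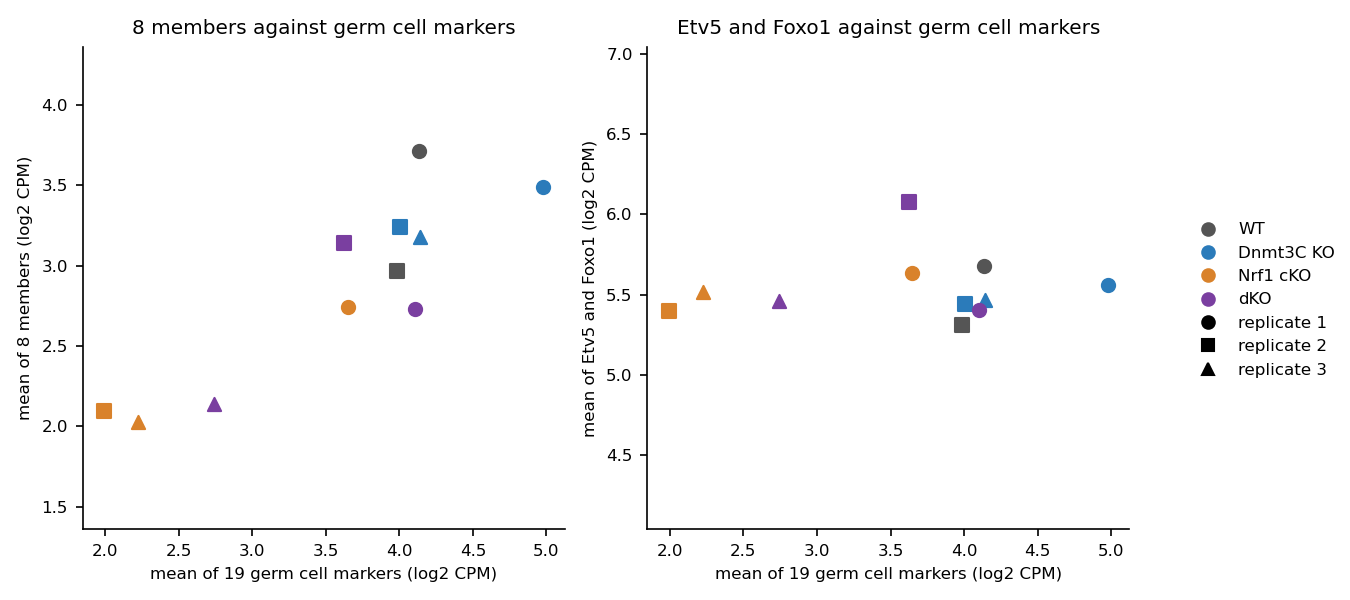
Mean log2 CPM of the 8 members other than Etv5 and Foxo1 (left) and of Etv5 and Foxo1 (right) against the mean of the 19 germ cell markers, 1 point per library; the split into 8 and 2 was made after the values were seen. The 8 members are lowest (2.03 to 2.14) in the 3 libraries with the fewest germ cell marker counts, where Etv5 and Foxo1 are between 5.40 and 5.52.

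Per kilobase of exon, the members' mean levels over the 11 libraries were ordered as follows. Etv5 was highest at 13.1 ± 2.77 CPM per kb (SD, n = 11) and above Foxo1, at 4.75 ± 0.64 (SD, n = 11), in 11 of 11 libraries. Nanos3 (3.99), Gfra1 (3.51), Zbtb16 (3.34), Ret (3.06) and Lin28a (3.01 CPM per kb) followed, and neighbours among them changed places between libraries: Nanos3 was above Gfra1 in 5 of 11, and Ret above Lin28a in 6 of 11. Sall4 (2.38 CPM per kb) was above Id4 (1.75) in 8 of 11 libraries. Id4 was above Nanos2 (0.45 ± 0.30, SD, n = 11) in 11 of 11. This order pools the genotypes. In the means of the 2 WT libraries, Foxo1 (4.51 CPM per kb) was below Gfra1 (4.88), Ret (4.61) and Zbtb16 (4.56), and Nanos3 (3.55) was also below Lin28a (4.37). Of these orders, only Gfra1 above Foxo1 held in both libraries. In WT replicate 1 Foxo1 (5.31) was above Ret (5.19). In WT replicate 2 Foxo1 (3.71) was above Zbtb16 (2.42), and Nanos3 (3.22) above Lin28a (3.15). In Dnmt3C KO Nanos3 averaged 7.53 CPM per kb.

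Other genes of the same pathways were counted from lists. Among 21 genes of GDNF and FGF signalling tested for Nrf1 deletion, edgeR called 0, and the median was 0.11. Of the 21, 15 were above 0. Gfra3, a co-receptor for another ligand of the family, had -0.87 (SE 0.35), Mapk3 0.23 (SE 0.10) and Gfra2 0.37 (SE 0.17). Of 17 genes of PI3K, AKT and FOXO, which act upstream and beside Foxo1, 0 were called, with a median of 0.06. Foxo6 had the smallest p, with a log2 difference of 0.51 (SE 0.20). For 14 genes of the ID family and BMP signalling, 0 were called, the median was 0.13, and Bmpr2, a BMP receptor, had 0.30 (SE 0.11). For 19 corepressor and partner genes of SALL4 and PLZF, 0 were called and the median was 0.06. Of the 19, 16 were above 0. Sall1, a paralogue of Sall4, had -0.93 (SE 0.39), and Chd3 had 0.26 (SE 0.12).

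Partners of the RNA-binding members had both kinds of value. Of 18 genes, 0 were called and the median was 0.07, but Dnd1, which encodes a germ cell RNA-binding protein that works with NANOS2, had -0.95 (SE 0.21, adjusted p = 0.288 in edgeR). Lin28b, the paralogue of Lin28a, had -0.92 (SE 0.32), and Nanos1 had -0.78 (SE 0.21). Dis3l2, the exonuclease that degrades uridylated let-7 precursors, had 0.19 (SE 0.09). Of 34 other genes of undifferentiated spermatogonia tested, 0 were called, 8 were lower and 1 higher at an unadjusted p under 0.05, and the median was -0.23. Epcam, an adhesion molecule gene, had -0.92 (SE 0.18, adjusted p = 0.214 in edgeR), Pou5f1 -1.04 (SE 0.29), Uchl1 -0.75 (SE 0.21) and Cd9 -0.33 (SE 0.11).

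Of 14 genes of differentiating spermatogonia tested for Nrf1 deletion, 0 were called, 7 were lower at an unadjusted p under 0.05, and the median was -0.79, beside -0.58 for the members. Between Nrf1 cKO and WT the medians of these lists were -0.93 and -0.94, and a difference between the lists was not tested. Sohlh2 and Sohlh1, transcription factors that start differentiation, had -1.25 (SE 0.28) and -1.09 (SE 0.30), and the meiotic genes Sycp3 and Smc1b had -1.11 (SE 0.31) and -0.84 (SE 0.23). Sertoli cell markers had a median of 0.34, with 11 of 12 above 0 and 0 called. Leydig, peritubular, endothelial, macrophage and red blood cell markers had medians of 0.04, -0.21, 0.16, -0.15 and -0.50, with 0 called in each list. Whether cell makeup has a part in the members' differences was not tested.

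The genes whose pattern over the 11 libraries was most like the members' mean log2 CPM were ranked by Pearson's r among 22584 features. Bnc1, a zinc finger gene, was first (r = 0.964), followed by Rimkla, Rffl, Pramel1, Trim71, Grb7, Abcc4, Brsk2, Gm18336 and Sh2d5 (r = 0.940). Trim71 encodes an RNA-binding ubiquitin ligase that is a target of let-7, and Grb7 an adaptor of receptor tyrosine kinases. In WT they ranged from 3.02 CPM for Grb7 to 29.6 CPM for Trim71, and 0 of the 10 belonged to the lists used here. The points share their libraries, genotypes and scaling factors, and the ranking is a description.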

How the data were processed

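Reads were mapped by the authors to GRCm38 using STAR 2.7.3a and assigned to genes and TE subfamilies by TEtranscripts (multi-mapping reads included, reverse-stranded). The authors deposited raw counts for each pair of genotypes beside their own DESeq2 1.44.0 comparison, which was not used. They report many protein-coding genes that differ between Nrf1 cKO and WT, more of them lower than higher. The difference from the few calls found here was not examined. A deposited table of TE copies was not used. Counts of a library were equal in every table and were joined. Counts are of reads without molecular identifiers, so depth sets counting error only. edgeR 4.0.16 in R 4.3.3 (filterByExpr, TMM, quasi-likelihood F test) gave log2 fold changes and p-values, adjusted by Benjamini-Hochberg over all features and called under 0.01. All 10 members passed the filter in each of 7 comparisons. Standard errors are the fold change over the square root of F. CPM on the log scale used a prior count of 1. The fits were also run on simulated counts with the same dispersion for every feature. That does not copy the spread between these replicates, and no result here rests on it. DESeq2 1.42.0 was an alternative. No library was a copy of another of its genotype, with a chi-square per degree of freedom of 17.6 to 61.8 between replicates. Exons of 6 members (Gfra1, Id4, Nanos2, Lin28a, Sall4 and Foxo1) overlap a gene on the opposite strand, and none overlaps one on its own. The labels name no animals, so p-values measure the spread between these libraries. The comparison of dKO and WT was not tested.

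Members and lists were chosen with earlier results of these data known. Named genes were all members, the label checks Nrf1 and Dnmt3c, Ddx4, Dazl and Gdnf, the 10 genes most like the members' mean, and up to 4 genes per list with the smallest p for Nrf1 deletion. Of the 20 germ cell markers listed, 19 were measured. Start site sequences are from RefSeq (GRCm38.p6), gene positions and exon lengths from GENCODE M21. Alternatives were DESeq2 size factors or Wald test, no low-count filter, an adjusted p under 0.05, the replicate block, leaving out each library, genes only, germ cell marker scaling, a fit of all genotypes, the contrast of genotype means and, added after seeing the data, edgeR with legacy = FALSE and DESeq2 at 0.05.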

Additional observations from a re-analysis of the deposited data

How the results depend on the processing

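Calls among the members depended on a few settings. Between Nrf1 cKO and WT, edgeR called 0 members. Dropping the low-count filter gave 2, the replicate block 1 (Lin28a, beside 87 features, 0.409%) and DESeq2 at 0.05 again 1 (Lin28a, adjusted p = 0.0495, beside 0.152% of features). For Nrf1 deletion, 1 (Nanos3, adjusted p = 0.0497, beside 0.33% of features) was called with DESeq2 at 0.05. In the other comparisons and under every other setting run, leaving out each library included, 0 were called. Over all features, edgeR called 0 or 1 in each comparison, and the alternatives called at most 138 between Nrf1 cKO and WT, 34 between dKO and Dnmt3C KO, 158 between Dnmt3C KO and WT, 14 between dKO and Nrf1 cKO, 113 for Nrf1 deletion, 43 for Dnmt3C loss and 3 for the interaction. Correlations of same-numbered libraries ran from -0.233 to 0.221, which cannot show whether litters were shared. The authors used littermate controls where they could, but which libraries came from littermates is not known here. The numbers are those of the sample titles, which differ from the descriptions for replicate 3 of Dnmt3C KO and of dKO, and no block was fitted on the latter. With the title numbers, the block changed the call of no other member. The legacy = TRUE setting is what this edgeR version uses by default.

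Over 10 members in 7 comparisons, germ cell marker scaling turned the sign of 42 of 70 values: 8 each between Nrf1 cKO and WT, between dKO and Nrf1 cKO and with Dnmt3C loss, 7 with Nrf1 deletion, 6 between dKO and Dnmt3C KO, 4 in the interaction and 1 between Dnmt3C KO and WT. By construction it moved the median of all features to 1.59 between Nrf1 cKO and WT, 0.96 between dKO and Dnmt3C KO and -0.26 between Dnmt3C KO and WT. Between Nrf1 cKO and WT it gave 0.50 for Zbtb16, 0.35 for Gfra1, 0.24 for Ret, 0.90 for Id4, 0.44 for Nanos2, 0.86 for Nanos3, 0.29 for Sall4 and 1.49 for Etv5. Between dKO and Dnmt3C KO it gave 0.51 for Zbtb16, 0.78 for Gfra1, 0.50 for Ret, 0.68 for Id4, 0.33 for Lin28a and 0.70 for Sall4. For Nrf1 deletion it gave 0.50 for Zbtb16, 0.59 for Gfra1, 0.38 for Ret, 0.78 for Id4, 0.00136 for Nanos3, 0.17 for Lin28a and 0.52 for Sall4. Of the others, it gave for example -0.25 for Foxo1 between Dnmt3C KO and WT, -0.14 for Lin28a between dKO and Nrf1 cKO and -0.13 for Nanos3 with Dnmt3C loss. The block gave 0.26 for Ret between dKO and Nrf1 cKO, and the cause was not tested.

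Leaving out single libraries gave a range that crossed 0 for 33 of the 70 values. Between Nrf1 cKO and WT these were Etv5 (-0.17 to 0.071) and Foxo1 (-0.16 to 0.38). Between dKO and Dnmt3C KO they were Gfra1 (-0.60 to 0.18), Id4 (-0.40 to 0.15), Sall4 (-0.89 to 0.073), Etv5 (-0.12 to 0.40) and Foxo1 (-0.016 to 0.23). Between Dnmt3C KO and WT they were Zbtb16 (-0.72 to 0.74), Lin28a (-0.51 to 0.30), Sall4 (-0.81 to 0.17), Etv5 (-0.15 to 0.061) and Foxo1 (-0.20 to 0.31). With Nrf1 deletion it was Etv5 (-0.089 to 0.18). Between dKO and Nrf1 cKO 8 members crossed 0 (all but Zbtb16 and Lin28a), among them Ret (-0.72 to 1.08), with Dnmt3C loss 7 (all but Nanos2, Nanos3 and Lin28a), among them Ret (-0.64 to 0.20), and in the interaction 5 (Zbtb16, Ret, Nanos2, Etv5 and Foxo1). With 7 to 59 counts per library, Nanos2 is the member with most counting error.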
